A study of Homo sapiens with 6 samples.

Results

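CUEDC1 and 8 other genes that encode CUE domains were followed in T47D cells in which CUEDC1 was knocked down. The 9 genes, CUEDC1, CUEDC2, AUP1, TOLLIP, TAB2, TAB3, ASCC2, N4BP2 and SMARCAD1, were taken by symbol from a table of 17758 genes, and all 9 were among the 13824 genes with enough reads to test. T47D is an established oestrogen receptor-positive line from a human breast ductal carcinoma. Poly(A)-selected RNA was sequenced from 3 libraries of cells with a non-targeting lentiviral short hairpin RNA (shNC) and 3 of cells with a lentiviral hairpin against CUEDC1 (shCUEDC1). All 6 libraries therefore came from lentivirus-carrying cells, with no agent added in either group per the labels. Neither the number of hairpins nor their sequence is given, and effects of a hairpin on other transcripts and effects of losing CUEDC1 cannot be told apart. The 3 libraries of a group are called biological replicates, but whether infections were repeated is unstated, and every p-value here reflects only how much these libraries vary.

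The CUE domain is a small helical fold that binds ubiquitin, the protein tag that marks other proteins for degradation, sorting or signalling. Proteins that carry it read or pass on this tag in different compartments: AUP1 at the endoplasmic reticulum and lipid droplets, TOLLIP on endosomes, TAB2 and TAB3 in the TAK1 kinase complex, and ASCC2 and SMARCAD1 in DNA repair and chromatin. CUEDC2 is known for roles in steroid receptor turnover and in the brake on IKK signalling. A gene related by domain could be higher where another is depleted, and the 8 other genes were examined for such a rise.

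The coding sequence of the CUE segment is shown for CUEDC1, for its closest relative by this segment, and for the pair TAB2 and TAB3, because the results turn on the knocked-down gene and on TAB2. Each segment is 42 codons (126 bases) of a GENCODE v29 transcript on GRCh38, 5′ to 3′ in the sense of the gene. Capitals mark the codons of the phenylalanine-proline pair near the start of the domain.
CUEDC1: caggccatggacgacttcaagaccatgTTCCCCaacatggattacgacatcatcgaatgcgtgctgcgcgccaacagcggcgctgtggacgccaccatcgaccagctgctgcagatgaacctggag
TOLLIP: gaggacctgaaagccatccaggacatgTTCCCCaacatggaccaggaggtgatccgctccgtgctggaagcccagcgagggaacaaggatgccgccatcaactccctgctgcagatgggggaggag
TAB2: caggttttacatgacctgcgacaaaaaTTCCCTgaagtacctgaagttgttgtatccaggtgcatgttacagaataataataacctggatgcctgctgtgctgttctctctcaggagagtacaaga
TAB3: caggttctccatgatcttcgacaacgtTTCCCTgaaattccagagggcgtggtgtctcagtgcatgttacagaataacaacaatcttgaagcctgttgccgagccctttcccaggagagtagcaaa

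The CUEDC1 segment lies in 1 coding exon at chr17:57885295-57885420 on the minus strand and covers codons 49 to 90 of 386. The segments of TOLLIP (chr11:1277045-1277170, minus strand) and CUEDC2 (chr10:102424026-102424151, minus strand) also lie within 1 exon. Those of TAB2 (chr6:149370028-149378071, plus strand) and TAB3 (chrX:30855509-30859558, minus strand) each span 2 coding exons, so these ranges include an intron. The segment of each gene was the ungapped window that scored best against CUEDC1 on translated codons. TOLLIP encoded the same residue as CUEDC1 at 19 of 42 codons (45.2%), TAB2 at 9, and CUEDC2 and TAB3 at 8. TAB2 and TAB3 encoded the same residue at 33 of 42 codons (78.6%). The best window of AUP1 lacked the phenylalanine-proline pair, and the ungapped search failed there. In the best window of ASCC2 the pair was leucine-proline, and that of N4BP2 also lacked the phenylalanine-proline pair.

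The libraries held between 18924327 and 19731609 estimated reads. The third control library, shNC 3, stood apart. Over genes of at least 10 CPM (counts scaled to library depth) on average, the SD of the log2 difference was 0.109 between shNC 1 and shNC 2, but 0.246 and 0.266 between these and shNC 3. It was between 0.235 and 0.247 between shNC 1 or 2 and the knockdown libraries, so a number of values are also given without it. All 9 luminal markers were expressed in every library, with summed levels of 4871 to 6225 FPKM (fragments per kilobase of transcript, scaled to library depth) in shNC and 6075 to 6203 in shCUEDC1. Of 14 markers of leukocytes, fibroblasts, endothelium and basal epithelium, CD14 and TP63 reached 1 FPKM in some library and none was at 0 throughout. No marker of these lists was called changed.

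CUEDC1 (chr17:57861243-57955323, minus strand, GRCh38) fell in every knockdown library, which checks the labels. Its level was 38.93, 39.46 and 33.63 FPKM in shNC 1, 2 and 3 and 11.18, 11.89 and 11.35 FPKM in shCUEDC1 1, 2 and 3. The groups did not overlap, and the 3 knockdown libraries lay closer together than the 3 controls. The change was -68.9%, with a 95% interval from -72.3% to -65.0%. On the log2 scale this is -1.68 with an SE of 0.0755, and edgeR gave an adjusted p of 9.27e-06. An exact two-sided permutation test gave p = 0.1, which is the lower limit for groups of 3. In shNC 3 the CUEDC1 level was 0.23 lower on the log2 scale than in shNC 1 and 2 (-0.23). Without shNC 3 the log2 change was -1.75. In bulk RNA, fewer cells with CUEDC1 and less CUEDC1 RNA per cell cannot be told apart. An antisense transcript, CUEDC1-AS1, overlaps the gene, and since the use of strand in counting is not given, its reads cannot be told from those of CUEDC1.

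In control cells CUEDC1 was an abundant member of its family, and the knockdown moved it from the third to the eighth of the 9 levels. On the FPKM scale, which allows genes to be compared, AUP1 was highest in shNC at 63.5 ± 0.953, followed by CUEDC2 at 54.2 ± 5.20 (SD, n = 3 each). CUEDC1 at 37.3 ± 3.22 and TAB2 at 37.3 ± 1.25 had overlapping ranges and did not differ beyond their spread. ASCC2 at 18.6 ± 0.298 lay above TOLLIP at 14.9 ± 0.469, while the ranges of TOLLIP, TAB3 (13.2 ± 1.82) and SMARCAD1 (12.7 ± 1.72) overlapped from each to the next. N4BP2 was lowest at 1.56 ± 0.0954. After the knockdown CUEDC1, at 11.5 ± 0.371 FPKM, overlapped SMARCAD1 at 11.9 ± 0.213 and stayed above N4BP2. As in shNC, AUP1 (56.8 ± 2.54) and CUEDC2 (53.9 ± 2.66) were highest in shCUEDC1, with ranges that now overlapped.

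**Figure D1:**
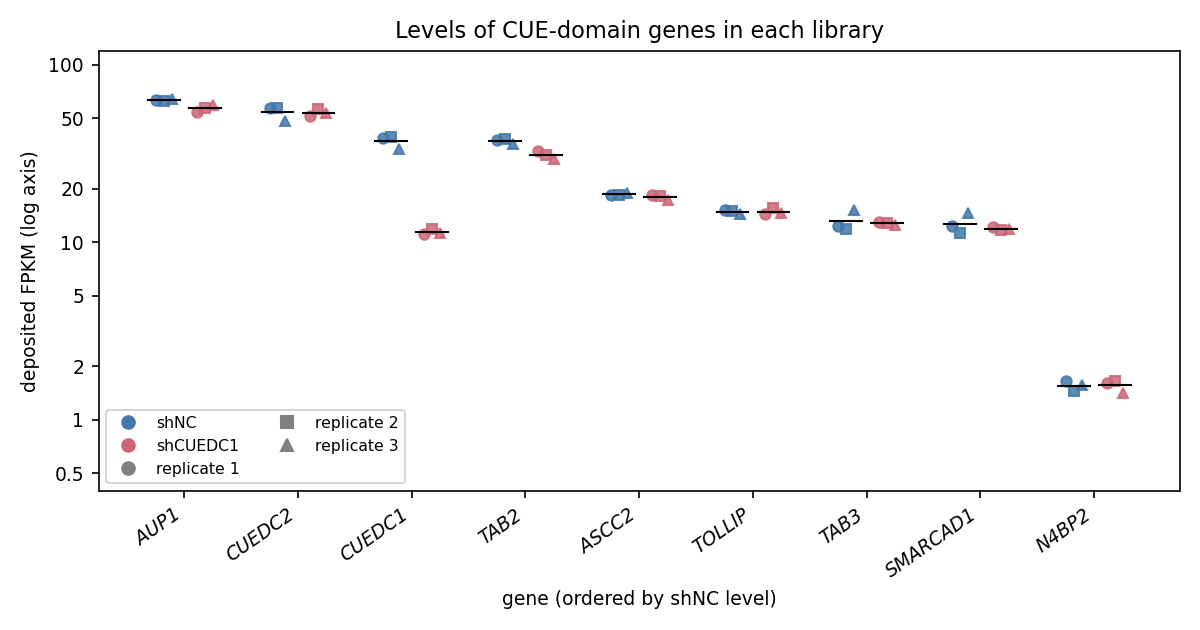
Deposited FPKM (log axis) of the 9 CUE-domain genes, ordered by their shNC level, with 1 point per library (blue shNC, red shCUEDC1, shapes for replicates) and a line at each group's mean. CUEDC1 drops to the level of SMARCAD1, TAB2 and AUP1 lie lower in all 3 knockdown libraries, and the ranges of the other 6 genes overlap between groups.

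None of the 8 other CUE-domain genes rose. By edgeR 0 of 8 were called higher and 1, TAB2, was called lower, where 5.19% and 4.77% of all tested genes were called in these directions (9.96% in all). At an unadjusted p below 0.05, 0 were higher and 2, TAB2 and AUP1, were lower, and DESeq2, limma-voom and limma-trend each called 0 higher and 1 lower. The median log2 difference of the 8 was -0.02, against -0.004 over all tested genes. Of the 8, 2 had groups that did not overlap, both lower in the knockdown. Of all tested genes 31.3% did not overlap, 15.7% being higher and 15.6% lower, so the members' share is near the background. In the edgeR fit of all 6 libraries the upper end of the 95% interval lay below a 1.2-fold rise for every one of the 8. The highest upper end was 1.18-fold, for N4BP2, and smaller rises lie within these intervals. Other fits bound N4BP2 less tightly. Its log2 value had an SE of 0.0970 in this fit but 0.135 by DESeq2 (value 0.02). Without shCUEDC1 3 the value was 0.09 with an SE of 0.102.

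**Figure D2:**
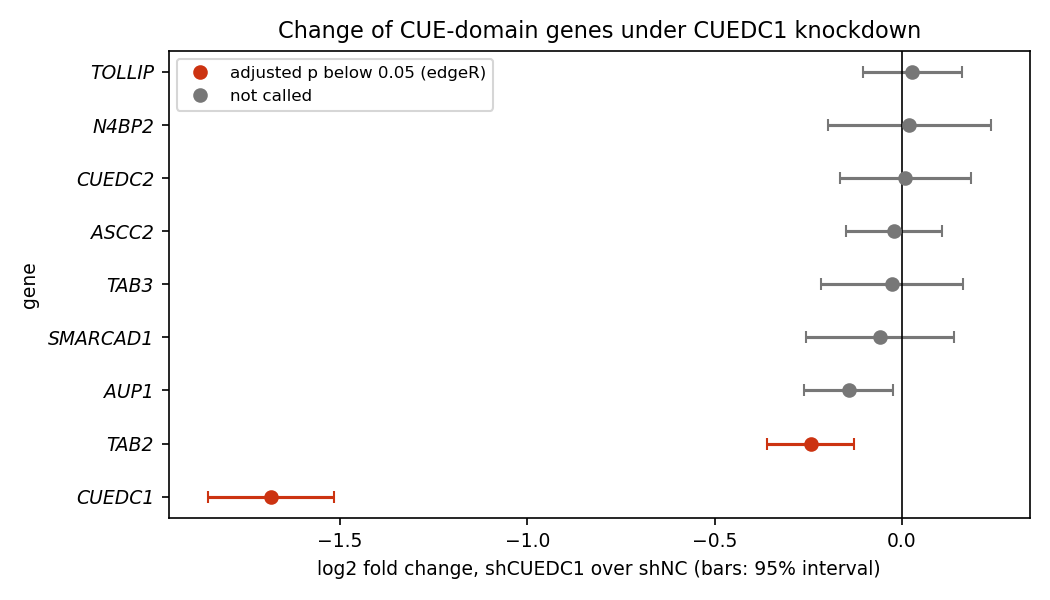
Log2 fold change of each gene in shCUEDC1 over shNC with its 95% interval, in red where the edgeR adjusted p is below 0.05. CUEDC1 lies at -1.68 and TAB2 at -0.24, and the intervals of 6 genes include 0.

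Among signalling adaptors, TAB2 was lower and its partner TAB3 showed no detectable difference. TAB2 and TAB3 encode alternative adaptors that tie the kinase TAK1 to polyubiquitin chains. TAB2 (chr6:149218641-149411613, plus strand) was at 37.58, 38.42 and 35.97 FPKM in shNC 1, 2 and 3 and at 32.64, 30.86 and 29.67 FPKM in shCUEDC1 1, 2 and 3. Every knockdown library lay below every control. TAB2 fell by 15.5%, with a 95% interval from -22.1% to -8.45%. The log2 value was -0.24 with an SE of 0.0519, at an edgeR adjusted p of 0.0173. The log2 change ranged from -0.28 to -0.21 over 13 alternative fits, and the call was lost in 4 of them. The edgeR adjusted p was 0.0703 without shNC 1, 0.0550 without shNC 2, 0.0993 without shCUEDC1 2 and 0.0946 without shCUEDC1 3. An antisense transcript and the gene SUMO4 overlap TAB2, and neither was among the tested genes.

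TAB3 (chrX:30827442-30975084, minus strand) was at 12.32, 11.97 and 15.29 FPKM in shNC 1, 2 and 3, and at 13.02, 12.83 and 12.60 FPKM in shCUEDC1 1, 2 and 3. The control shNC 3 was the highest of the 6 libraries, and the knockdown libraries lay between it and the other controls. TAB3 differed by -0.03 on the log2 scale, with a 95% interval from -0.22 to 0.16 and an edgeR adjusted p of 0.890. Without shNC 3 it was 0.09 (edgeR adjusted p = 0.145).

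TOLLIP, an adaptor of interleukin-1 and Toll-like receptor signalling that also sorts cargo on endosomes, has the CUE segment closest to that of CUEDC1. TOLLIP (chr11:1274371-1309654, minus strand) was at 15.29, 14.93 and 14.36 FPKM in shNC and 14.52, 15.59 and 14.61 FPKM in shCUEDC1. The libraries of the groups intermingled. TOLLIP differed by 0.03 on the log2 scale (edgeR adjusted p = 0.824). In this fit the 95% interval ran from -0.10 to 0.16, with its upper end at a 1.12-fold rise of TOLLIP.

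CUEDC2, which binds steroid receptors and IKK subunits, showed no detectable difference. CUEDC2 (chr10:102423245-102432661, minus strand) was at 57.17, 57.24 and 48.19 FPKM in shNC and 51.19, 56.51 and 53.87 FPKM in shCUEDC1. Here shNC 3 was the lowest library and the 2 other controls were the highest. CUEDC2 differed by 0.01 on the log2 scale, with a 95% interval from -0.17 to 0.18 (edgeR adjusted p = 0.962). Without shNC 3 the value was -0.07 (edgeR adjusted p = 0.388).

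At the endoplasmic reticulum, AUP1 was lower in each knockdown library but was not called. AUP1 recruits the ubiquitin-conjugating enzyme UBE2G2 to the endoplasmic reticulum and to lipid droplets. AUP1 (chr2:74526645-74529939, minus strand) was at 63.56, 62.47 and 64.37 FPKM in shNC and 54.07, 57.17 and 59.11 FPKM in shCUEDC1. The groups did not overlap. AUP1 differed by -0.14 on the log2 scale, with a 95% interval from -0.26 to -0.02. By edgeR the unadjusted p was 0.0243 and the adjusted p 0.130. Without shNC 3 the difference was -0.13 with an edgeR adjusted p of 0.0441, in a fit that called 28.1% of all genes and 13.8% as lower. The end of AUP1 overlaps the gene HTRA2, whose log2 difference was 0.16 (edgeR adjusted p = 0.271), and 0.10 without shNC 3.

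The remaining members act on nucleic acids or chromatin, and none differed detectably. ASCC2, the subunit of the activating signal cointegrator complex that binds ubiquitin at alkylation damage, was at 18.42, 18.47 and 18.96 FPKM in shNC and 18.57, 18.30 and 17.42 FPKM in shCUEDC1 (chr22:29788608-29838304, minus strand). ASCC2 differed by -0.02 on the log2 scale, with a 95% interval from -0.15 to 0.11 (edgeR adjusted p = 0.856). SMARCAD1, an SNF2-type ATPase that keeps heterochromatin through replication and carries CUE domains in tandem, was at 12.30, 11.28 and 14.63 FPKM in shNC and 12.17, 11.75 and 11.90 FPKM in shCUEDC1 (chr4:94207611-94291292, plus strand). As for TAB3, shNC 3 was the highest library. SMARCAD1 differed by -0.06 on the log2 scale, with a 95% interval from -0.26 to 0.14 (edgeR adjusted p = 0.735). Without shNC 3 the value was 0.05 (edgeR adjusted p = 0.562).

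N4BP2, a NEDD4-binding protein with polynucleotide kinase activity, was the scarcest member (chr4:40056826-40158252, plus strand). It was at 1.65, 1.46 and 1.57 FPKM in shNC and 1.62, 1.66 and 1.42 FPKM in shCUEDC1, from 255 to 304 estimated reads a library. The groups overlapped throughout. N4BP2 differed by 0.02 on the log2 scale (edgeR adjusted p = 0.929), and its 95% interval, from -0.20 to 0.24, was the widest of the 9.

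The position of shNC 3 differed from gene to gene. Relative to the mean of shNC 1 and 2 on the log2 CPM scale, shNC 3 was higher by 0.32 for TAB3 and by 0.30 for SMARCAD1. It was at -0.25 for CUEDC2 and -0.08 for TAB2 and TOLLIP. The knockdown libraries were between -0.33 and -0.20 for TAB2 on this scale, so shNC 3 lay on the same side of shNC 1 and 2 as the knockdown, at a smaller distance.

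**Figure D3:**
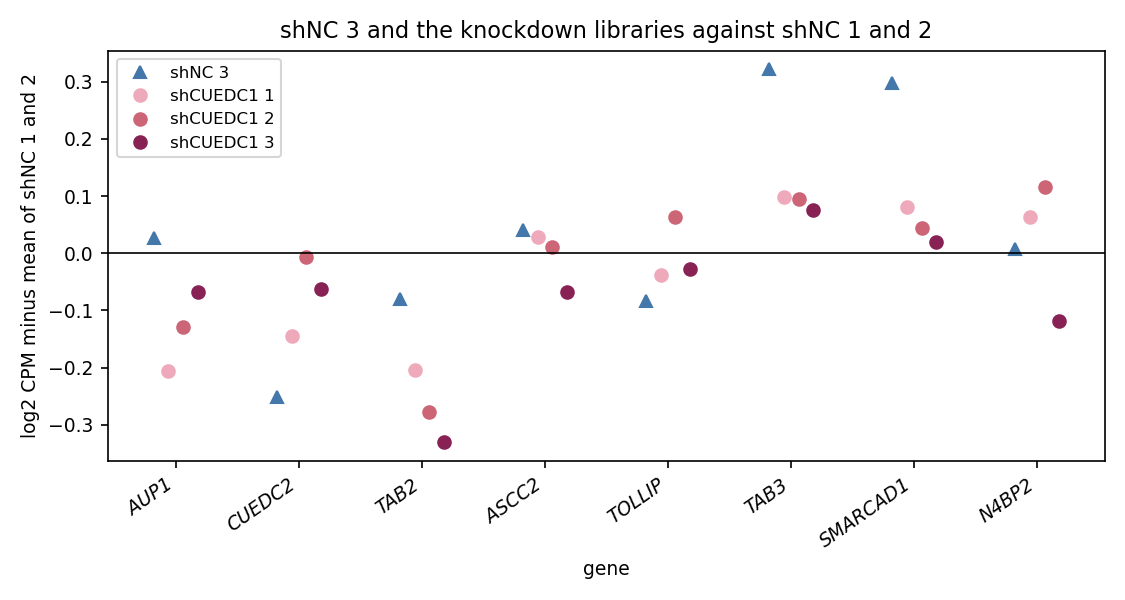
Log2 CPM of shNC 3 (triangle) and the 3 knockdown libraries (circles) relative to the mean of shNC 1 and 2, for the 8 other CUE-domain genes. For TAB3, SMARCAD1, CUEDC2 and, by little, TOLLIP the control shNC 3 lies farther from the other controls than the knockdown libraries do. For TAB2 the knockdown libraries lie farther out.

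Summed over the 9 genes, CUE-domain RNA was lower after the knockdown, and the difference was larger than that of CUEDC1 alone. The sum was 257.2, 255.7 and 247.0 FPKM in shNC 1, 2 and 3 and 209.0, 216.6 and 212.0 FPKM in shCUEDC1 1, 2 and 3. The mean difference was -40.8 FPKM (-16.1%), of which CUEDC1 made up -25.9 FPKM. The other 8 genes together went from 216.0 ± 2.49 to 201.0 ± 3.45 FPKM (SD, n = 3 each), a difference of -6.91%, with no overlap of the groups. Most of this difference lay in AUP1 (mean 63.5 to 56.8 FPKM, not called) and TAB2 (37.3 to 31.1 FPKM). The ranges of the rest overlapped between groups. No test was made on these sums. CUEDC1 was 14.7 ± 0.974% of the summed FPKM in shNC and 5.40 ± 0.0797% in shCUEDC1.

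**Figure D4:**
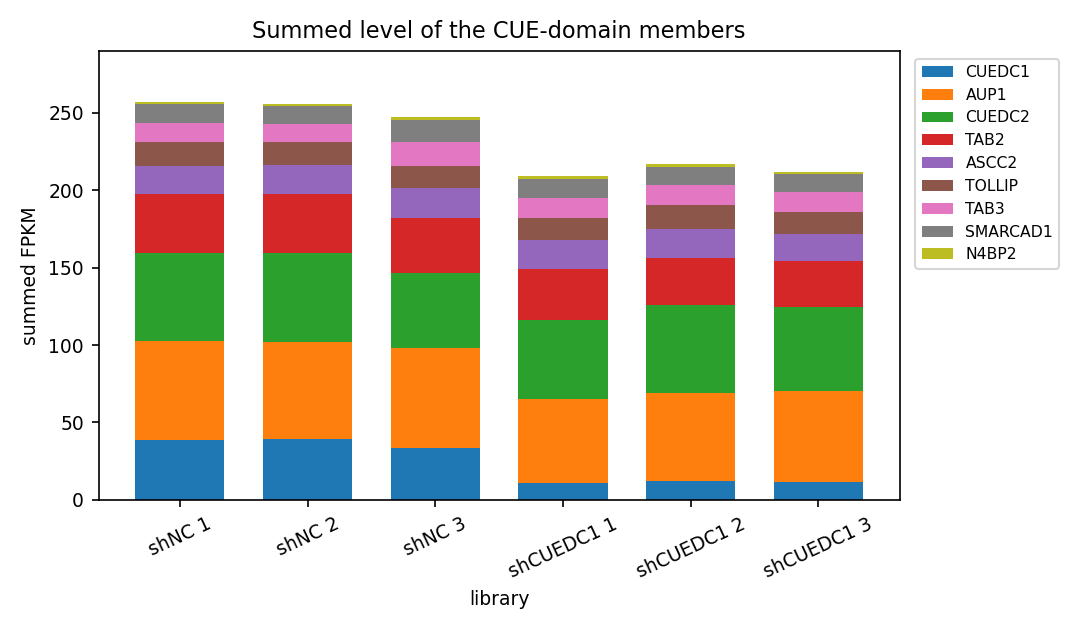
Summed FPKM of the 9 CUE-domain genes in each library, stacked by gene with CUEDC1 at the base. The 3 control bars reach 247.0 to 257.2 FPKM and the 3 knockdown bars 209.0 to 216.6 FPKM, with the CUEDC1 part smaller in each knockdown bar.

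The estimated reads divided by FPKM and library size give the transcript length that the deposited values imply, which moves when the mix of isoforms moves. For CUEDC1 it was 2802 ± 21.9 bases in shNC and 2805 ± 26.9 bases in shCUEDC1 (SD, n = 3 each). The knockdown left less CUEDC1 RNA of about the same implied length. For TAB2 it was 4248 ± 6.66 and 4261 ± 18.2 bases. Over the 9 genes the groups differed by at most 1.11%, for SMARCAD1, whose libraries varied by more than that.

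Genes beside CUEDC1 on chromosome 17 were not called. Of the 3 nearest tested genes on each side, 0 of 6 passed by edgeR, by DESeq2 or by limma, with log2 differences from -0.11 for MSI2, an RNA-binding protein, to 0.12 for DYNLL2, a dynein light chain. MSI2 was at -0.02 without shNC 3. MRPS23, a mitochondrial ribosomal protein and the nearest on 1 side, went from 100 ± 2.51 to 108 ± 3.22 CPM (edgeR adjusted p = 0.216, and 0.0364 without shNC 3). At an unadjusted p below 0.05 by edgeR, 1 of the 6, DYNLL2, was higher. VEZF1, a transcription factor and the nearest on the other side, was at 207 ± 18.3 and 210 ± 4.40 CPM (SD, n = 3 each).

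The 5 genes whose profile over the 6 libraries was most like that of CUEDC1, by the root mean square difference of centred log2 CPM among 12000 genes, were PAMR1, TIMP3, CD36, TFAP2B and HTRA1. Since likeness was measured on these same libraries, a lower level in the knockdown follows from the choice of these genes. PAMR1, a secreted protein with protease-like domains, was nearest at 0.123. PAMR1 was at 31.6 to 33.8 CPM in the 3 shNC libraries and 8.71, 10.6 and 11.01 CPM in the 3 shCUEDC1 libraries, and its log2 value was -1.68 with an SE of 0.0973 (edgeR adjusted p = 2.85e-05). TIMP3, an inhibitor of metalloproteinases, was next at 0.150, and CD36, a fatty acid receptor, at 0.165. CD36 was at 235, 220 and 143 CPM in shNC and shared with CUEDC1 a lower level in shNC 3. With log2(FPKM + 0.5) in place of log2 CPM, 3 of these 5 were among the nearest 5, with TFAP2B at rank 21 and HTRA1 at rank 11.

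AUP1 acts in the degradation of proteins from the endoplasmic reticulum, and a list of genes of this pathway was examined, whether or not their products bind AUP1. Among the 25 tested genes of this list there were 2 rises and 2 falls (16.0%, against 9.96% of all genes), with a median log2 value of -0.03. FAF2, which recruits the ATPase p97, was at 141 ± 6.98 CPM in shNC and fell to 112 ± 2.98 CPM. Its log2 value was -0.33 with an SE of 0.0530 (edgeR adjusted p = 0.00474), and it was called in all 13 alternatives. FAM8A1, a cofactor of the ligase HRD1, fell by 0.30 on the log2 scale. SEL1L, the scaffold of the HRD1 complex, rose by 0.28 and OS9, a lectin of that complex, by 0.15. UBE2G2, the conjugating enzyme that AUP1 binds, was at 99.0 ± 4.83 and 86.8 ± 1.96 CPM (log2 difference -0.19, edgeR adjusted p = 0.0549), and was called without shNC 2 (0.0435) or shNC 3 (0.0118). FAM8A1 lost its call without shCUEDC1 2 (edgeR adjusted p = 0.0701) or shCUEDC1 3 (0.0532). SEL1L and OS9 lost theirs without any library other than shNC 3, up to 0.155 without shCUEDC1 1 and 0.161 without shCUEDC1 2. Without shNC 3, 3 of these 25 rose and 7 fell, where 14.3% of all genes were called higher and 13.8% lower (28.1% in all).

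In the TAK1 and NF-kB pathway, where TAB2, TAB3, TOLLIP and CUEDC2 act, 3 of 36 tested genes rose and 1 fell (11.1%, against 9.96%), with a median of -0.01. TLR2, a receptor of bacterial lipoproteins, was scarce and fell by 0.78 on the log2 scale, with 3.77 ± 0.157 CPM in shNC and 2.19 ± 0.280 CPM in shCUEDC1. IL1R1, the interleukin-1 receptor, rose from 24.2 ± 5.72 to 38.4 ± 2.39 CPM, by 0.67 on the log2 scale and by 0.87 without shNC 3. IRAK1, a kinase below that receptor, rose by 0.31 and IKBKG, the ubiquitin-binding subunit of the IKK complex, by 0.39. MAP3K7, which encodes TAK1, was at 69.9 ± 4.62 and 68.8 ± 1.37 CPM, and TAB1, its other adaptor, differed by 0.21 (edgeR adjusted p = 0.271), and by 0.10 without shNC 3 (edgeR adjusted p = 0.368). The calls were lost without single libraries, with the highest edgeR adjusted p at 0.107 for TLR2, 0.105 for IL1R1 and 0.120 for IRAK1, each without shCUEDC1 2, and 0.167 for IKBKG without shCUEDC1 3. TLR2, IL1R1 and IKBKG lost them without shNC 1 or any 1 shCUEDC1 library, and IRAK1 also without shNC 2. Without shNC 3, 8 of these 36 genes rose and 2 fell, where 14.3% of all genes were called higher and 13.8% lower (28.1% in all).

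Endosomal and autophagic adaptors had 1 rise and 1 fall among 22 tested (9.09%, median -0.01). These were members of the ubiquitin-like family that coats autophagosomes: MAP1LC3B, at 206 ± 5.30 CPM in shNC, fell to 174 ± 1.62 CPM (log2 value -0.24, edgeR adjusted p = 0.00812). GABARAP, at 170.1 ± 5.86 CPM in shNC, rose to 193 ± 6.33 CPM (log2 value 0.18, edgeR adjusted p = 0.0407). MAP1LC3B lost its call without shCUEDC1 1 (0.0566) or 2 (0.0607), and GABARAP without shNC 1 or any 1 shCUEDC1 library, up to 0.161 without shCUEDC1 3. Without shNC 3, 4 of these 22 rose and 3 fell, a share near the 28.1% of all genes called in that fit.

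SNF2-type remodellers, relatives of SMARCAD1, had 2 rises and 0 falls among 24 tested with TRIM28, a SMARCAD1 partner (8.33%, median 0.07). At an unadjusted p below 0.05 by edgeR, 7 were higher and 2 lower, and DESeq2 called 4 higher and 0 lower. SMARCA1, an ISWI-type ATPase, was at 83.9 ± 7.06 CPM in shNC and rose to 116 ± 2.23 CPM. Its log2 value was 0.46 with an SE of 0.0639 (edgeR adjusted p = 0.00221), and SMARCA1 was called in all 13 alternatives. CHD3, of the NuRD complex, rose by 0.32. CHD3 lost its call without shNC 1, shCUEDC1 1 or shCUEDC1 2, with an edgeR adjusted p of up to 0.0923. TRIM28 was at 180 ± 12.2 and 192 ± 6.67 CPM. Without shNC 3, 9 of these 24 rose and 0 fell, where 28.1% of all genes were called (14.3% higher and 13.8% lower).

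The other gene lists had no called gene by edgeR, DESeq2, limma-voom or limma-trend. These were the ASCC complex and ribosome quality control (12 tested), ubiquitin receptors with UBA or UIM domains (17) and steroid receptor and mitotic partners of CUEDC2 (9). At an unadjusted p below 0.05 by edgeR, 0 and 0 were higher and lower among ASCC partners, 2 and 1 among UBA and UIM receptors and 2 and 1 among CUEDC2 partners. ASCC3, the helicase of the ASCC complex, was at 69.2 ± 4.72 and 69.0 ± 4.82 CPM, and RACK1, a ribosomal scaffold, at 786 ± 47.5 and 808 ± 15.8 CPM. PSMD4, a ubiquitin receptor of the proteasome, was at 225 ± 14.2 and 233 ± 5.03 CPM (log2 difference 0.05, and 0.0032 without shNC 3). The mitotic kinase CDK1 was at 300.0 ± 25.3 and 321 ± 18.2 CPM (log2 difference 0.10, and 0.04 without shNC 3). ESR1, the oestrogen receptor, differed by 0.19 (edgeR adjusted p = 0.165), and by 0.30 without shNC 3 (edgeR adjusted p = 1.92e-06). Without shNC 3, 1 of 12 ASCC partners, 4 of 17 UBA and UIM receptors and 4 of 9 CUEDC2 partners were called, in a fit that called 28.1% of all genes.

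**Figure D5:**
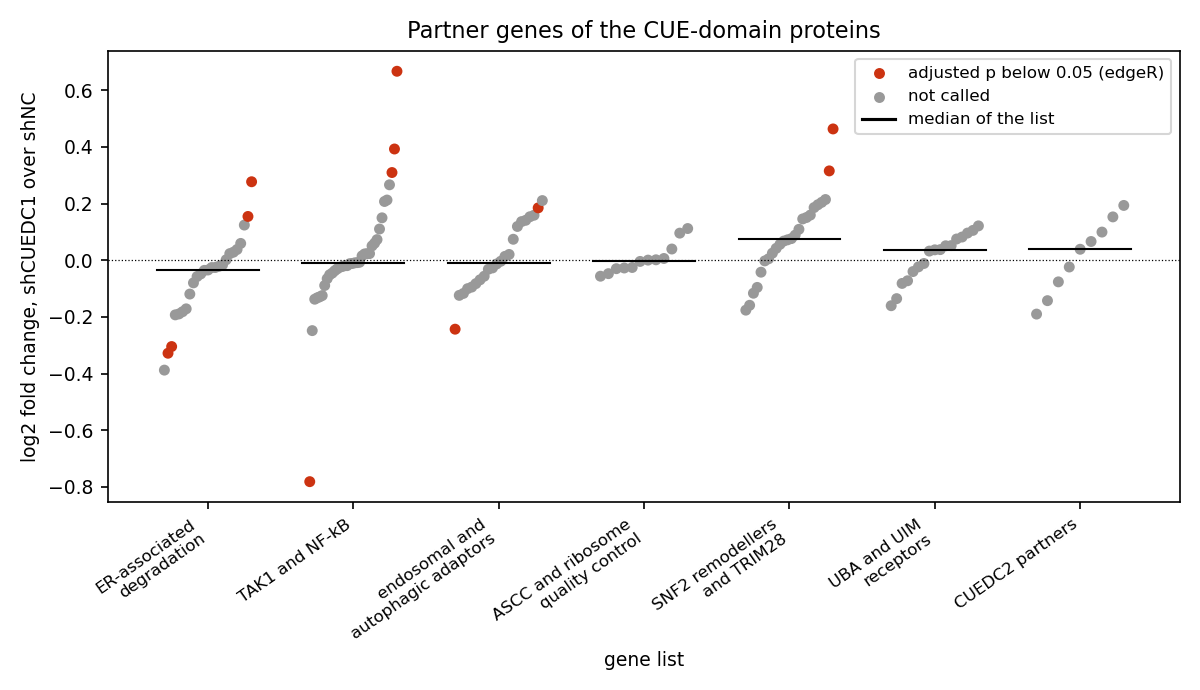
Log2 fold change of each tested gene of the pathway and partner lists, grouped by list, with called genes in red (edgeR adjusted p below 0.05). Other genes are in grey, with a black line at the median of the list. The medians lie between -0.03 and 0.07, and called genes stand on both sides of 0 in the first 3 lists and only above 0 among the SNF2 remodellers.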

How the data were processed

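1 table of all 6 libraries was deposited, made on GRCh38.p13 according to the submitters' processing notes. Aligner, counting software and strand setting were not given in the sources used here. Deposited estimated counts are fractional and unscaled (named read counts in the header). The deposited FPKM values are relative to transcript length and depth, and the deposited TPM values to a fixed total per library. The deposited signal columns are counts divided by about 1 size factor per library and were not used in tests. Samples were grouped by title.

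Counts were rounded, filtered (filterByExpr, minimum count 10), TMM-normalised and tested in R 4.3.3 by the robust quasi-likelihood method of edgeR 4.0.16, with Benjamini-Hochberg adjustment over 13824 genes. Calls have an adjusted p below 0.05. Changes are shCUEDC1 over shNC and FPKM is used between genes. Alternatives were RLE factors, 2 other filters, DESeq2 1.42.0, limma-voom and limma-trend 3.58.1 on log2(FPKM + 0.5), a replicate block and each library left out. On counts simulated for this comparison, 13703 genes were tested and edgeR called 79% of 100 genes changed 1.5-fold and 94% of 100 changed 2-fold.

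The members and gene lists were chosen with earlier results of these data known. Named genes are the members, up to 4 called genes per list by p (or the most abundant member), the 5 profiles nearest CUEDC1 and its 3 tested neighbours on each side by RefSeq order. UBE2G2, MAP3K7, TAB1, ASCC3, TRIM28 and ESR1 were added for their roles. Some genes that this rule names are not reported here.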

Additional observations from a re-analysis of the deposited data

How the results depend on the processing

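CUEDC1, FAF2 and SMARCA1 were called in the same direction in all 13 alternatives. So were the 5 profiles nearest CUEDC1, but these were picked for their likeness to CUEDC1 in the same libraries, so their calls are no separate support. Of the 8 members other than CUEDC1, 0 were called higher in any alternative. The number of genes called was 1377 and ranged from 468 (without shCUEDC1 2) to 3925 (without shNC 3) when 1 library was left out, and the count of these 8 called lower from 0 to 2. Called genes per list then ranged from 1 to 10 for endoplasmic reticulum degradation, 0 to 10 for TAK1 and NF-kB, 0 to 7 for endosomal adaptors, 0 to 1 for ASCC partners, 1 to 9 for SNF2 remodellers, and 0 to 4 for both UBA or UIM receptors and CUEDC2 partners. With limma-trend the counts were 2 for endoplasmic reticulum degradation, 1 for endosomal adaptors and 1 for SNF2 remodellers, and with DESeq2 4 for SNF2 remodellers. Uncalled differences near 0 changed sign. With 1 library left out, the log2 value ranged from -0.0669 to 0.0500 for CUEDC2, -0.00356 to 0.0485 for TOLLIP, -0.0894 to 0.0927 for TAB3, -0.0412 to 0.00780 for ASCC2, -0.0274 to 0.0867 for N4BP2, -0.144 to 0.0498 for SMARCAD1, -0.0564 to 0.0364 for MAP3K7, -0.0632 to 0.0510 for ASCC3, -0.0273 to 0.10 for VEZF1 and -0.0792 to 0.0407 for SRSF1. CUEDC2 was at -0.0057 with limma-trend, and ASCC3 at 0.0025 with no filter and 0.00035 with DESeq2. The fits with a library left out also had fewer samples, and the cause of these differences between fits was not tested.

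Same-numbered libraries did not deviate together (correlations 0.0038, 0.0654 and 0.0262). Correlations between libraries of different number ran from -0.0894 to 0.0693. The check gave no sign that the numbers pair the libraries, but with so few libraries it cannot exclude pairing. With the replicate as a block 1117 genes were called, CUEDC1 was at -1.68 (edgeR adjusted p = 1.62e-04), TAB2 had an adjusted p of 0.0290, and the lists held 2 called genes for endoplasmic reticulum degradation and 1 for endosomal adaptors.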
